A study of Mus musculus with 27 samples.

Results

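Lysosomal hydrolases, their membrane partners and the proton pump that acidifies the lysosome are encoded by the 41 mouse genes described here. They were chosen by name: each is a gene to which the deposited H3K27ac table assigns at least 1 window, and the rule uses no measured value. They hold 41 of the 16038 genes and 391 of the 70300 windows of that table. The cells were Kupffer cells, which are macrophages residing in the liver, taken by cell sorting from C57BL/6J mice as high for F4/80 and positive for Tim4. The mice were fed a NASH diet, which brings on a model of non-alcoholic steatohepatitis with fat and inflammation in the liver, or a control diet. H3K27ac, an acetylated histone that marks promoters and enhancers in use, was measured by ChIP-seq in 2 libraries per diet, as were the nuclear receptor LXR, the stress-induced factor ATF3 and the acetyltransferase P300. For H3K27ac, livers of both diets were digested with flavopiridol, a blocker of transcription, according to the labels' protocol. The labels give no age or time on the diet, though a file header names the NASH list behind the windows for 20 weeks. They name no transgene and do not say whether libraries came from separate animals, so p-values measure the spread between libraries, which may be technical.

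Lysosomes are acidic vesicles in which macrophages break down what they take up by phagocytosis and endocytosis. Soluble hydrolases cut proteins, sugar chains and lipids, and the vacuolar ATPase (V-ATPase), built from a membrane sector V0 and a cytosolic sector V1, pumps in the protons they need. Many genes of this machinery carry a palindromic E-box in their promoters, within a longer element called CLEAR that the factor TFEB and its relatives bind.

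The E-box letters were looked for in promoters because they form the core of the CLEAR element. The motif CACGTG was searched from 250 bases before to 50 bases after each annotated start in the RefSeq promoter table (build GRCm38.p6, the assembly also called mm10). It reads the same on both strands. The table held promoters of 33 of the 41 genes, and 12 of these (36.4%) had at least 1 E-box. Counted by promoter, 12 of 38 (31.6%) held the motif, against 7.15% of the 32851 promoters in the table. The AP-1 motif TGANTCA, read on both strands, stood in 7.89% of the lysosomal promoters and in 7.81% of all promoters. The nuclear receptor half-site AGGTCA, also read on both strands, stood in 15.8% and 16.3%. A match describes letters only and shows no binding. The genes without an entry were Ctsb, Ctsh, Npc1, Asah1, Atp6v0d2, Atp6v1b2, Atp6v1c1 and Atp6v1h.

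The stretch with the most E-boxes lay just before the start of Lamp1, which encodes the most abundant membrane glycoprotein of the lysosome. It spans chr8:13159080-13159160 on the plus strand and holds 4 E-boxes, in capitals, whose first bases lie at -61, -45, -28 and -15 from the start.
Lamp1: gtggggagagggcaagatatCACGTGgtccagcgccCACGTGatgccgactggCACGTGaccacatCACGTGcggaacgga
Next to it are 30 bases around E-boxes of genes to which the results below return, again with the E-box in capitals and 5′ to 3′ on the strand of the gene. The Gla pair (minus strand, chrX:134601215-134601244 and chrX:134601182-134601211, at -227 and -194) stands beside one E-box each of Lgmn (minus strand, chr12:102439124-102439153, at -49), Mcoln1 (plus strand, chr8:3500436-3500465, at -71) and Atp6v1a (minus strand, chr16:44139373-44139402, at -131).
Gla, distal: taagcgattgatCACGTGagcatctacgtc
Gla, proximal: tgagatctcggtCACGTGagcaactctcgg
Lgmn: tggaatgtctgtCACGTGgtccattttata
Mcoln1: ggtcgcgcttgtCACGTGttcagttcaggc
Atp6v1a: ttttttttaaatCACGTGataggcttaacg
The Gla E-boxes also lie in the first bases of Hnrnph2, a gene read in the other direction that starts 174 bp from the Gla start. The Lgmn E-box is placed from an annotated start that is not the one used for Lgmn distances below. Another Lgmn promoter, further upstream, held no E-box.

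**Figure D1:**
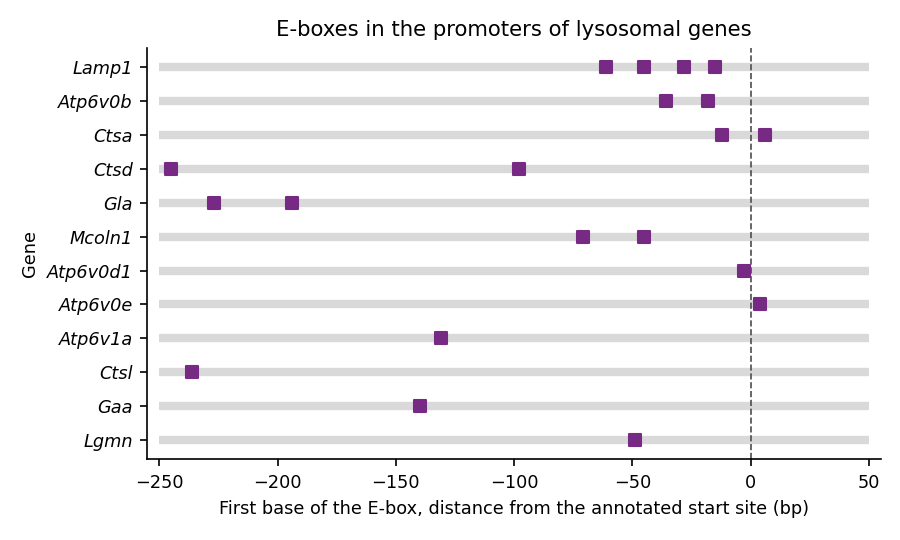
Position of each CACGTG E-box (squares) in the promoters of the 12 lysosomal genes that hold one. The x axis is the distance of the first base of the motif from the annotated start site in bp, the grey bar is the 300 bases searched, and the dashed line is the start. Lamp1 has 4, 5 genes have 2 and the other 6 have 1.

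Each H3K27ac value is the number of sequenced tags in a window after the authors brought each library to a total of 10000000 (normalised tags). The NASH libraries held 18749728 and 19231109 tags, and the control libraries 9468035 and 22615879, with 7.91% to 9.60% of the tags in windows. With 0 tags counted, up to 3 remain possible, equal to 1.60 and 1.56 normalised tags in the NASH libraries and 3.17 and 1.33 in the control libraries by counting error alone. The markers of the sort were checked first. Of 8 Kupffer cell markers, none was at 0, and 4 had lower H3K27ac under the NASH diet in both scalings described below. Timd4, the gene of Tim4, had 21.3 and 26.0 normalised tags in the NASH libraries, against 257 and 256 in the control libraries. The summed level of the 8 markers was 1268 and 1180 in the NASH libraries and 1811 and 1882 in the control libraries. Of 5 general macrophage markers 0 rose, and 1 (Spi1) fell in the authors' scaling only. Among 4 tested monocyte markers, Ly6c2 had 298 and 333 under NASH and 243 and 252 under control and rose with TMM only, while Plac8 fell in both scalings (123 and 98.3, against 301 and 193). The monocyte markers summed to 466 and 464 in the NASH libraries and to 609 and 500 in the control libraries. T and NK cell markers summed to 163 and 150 under NASH and 128 and 128 under control, with 1 of 3 tested raised in both scalings (Cd3d, 12.3 and 21.8, against 3.17 and 3.54). Endothelial markers summed to 74.7 and 66.0 under NASH and 138 and 94.2 under control, with 2 of 3 tested lowered in both scalings (Cdh5 and Stab2). Neutrophil markers summed to 79.5 and 74.4 under NASH and 126 and 136 under control, and both tested ones, Elane and Csf3r, fell in the authors' scaling only, as did 1 of 3 tested dendritic cell markers (Zbtb46; sums 121 and 125, against 171 and 151). Hepatocyte markers summed to 30.4 and 30.7 under NASH and 24.3 and 23.9 under control, with Apoa1 raised with TMM only. B cell and cholangiocyte markers had 1 tested gene each, not called, and no stellate cell marker had a window. The part of these marker differences in the results below was not tested. In sorted bulk cells, a change in which cells are present and a change in signal per cell cannot be told apart.

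Lysosomal genes carried far more H3K27ac than most genes in both diets. Per kb of window, the median lysosomal gene had 90.5 normalised tags in the NASH libraries, against 24.5 for the median of all genes. Under the control diet the medians were 101 for lysosomal genes and 31.9 for all genes. By this measure 38 of 41 stood above the median gene in either diet, and Ctsk, Atp6ap1 and Smpd1 did not. The genes also had more windows, with a median of 7 against 3 per gene. Of their windows, 23.3% lay within 1000 bp of a start site, against 29.5% of all windows, and 40.4% lay in introns, against 34.6%.

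Ranked per kb in the control diet, some subunits of the proton pump led, while others stood near the bottom. Atp6v1h, a V1 subunit that regulates the pump, averaged 260 per kb in NASH and 276 in control cells, and Atp6v0c, which forms the proton-carrying ring, averaged 193 and 214. Lipa, the acid lipase that frees cholesterol from lipoproteins, averaged 168 and 181. The control libraries of Atp6v1h (256 and 296 per kb, over 2 windows) lay above those of Atp6v0c (212 and 216). The next in order, Atp6v1e1 (179 and 200) and Lipa (174 and 187), overlapped. At the low end were Ctsk, an osteoclast collagenase (10.6 in NASH, 21.5 in control), and Smpd1, the acid sphingomyelinase (20.5 and 18.8). By control level the pump gene Atp6ap1 (12.3 and 20.0) ranked between them. The pump genes Atp6v1b2 (31.9 and 45.2) and Atp6v0d2 (42.7 and 46.2) ranked just above. Smpd1 has 1 window, with 4.27 and 4.68 normalised tags under NASH and 4.22 and 3.98 under control, too few to be tested.

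Summed over all windows of a gene, the highest values belonged to proteases and to prosaposin. Lgmn, the asparaginyl protease legumain that processes cathepsins, had 777 and 743 normalised tags in the NASH libraries and 907 and 849 in the control libraries. The diets did not overlap, but the difference was not called (adjusted p = 0.168). Ctsb, the cathepsin B gene, had 857 and 804 under NASH and 711 and 799 under control (adjusted p = 0.388). Here all NASH values were above all control values, by a small margin. Psap, which encodes the activator proteins of sphingolipid breakdown, had 830 and 694 under NASH and 774 and 804 under control, and these ranges overlapped. Ctsd, the aspartic protease cathepsin D, likewise overlapped, at 459 and 472 under NASH and 557 and 461 under control.

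**Figure D2:**
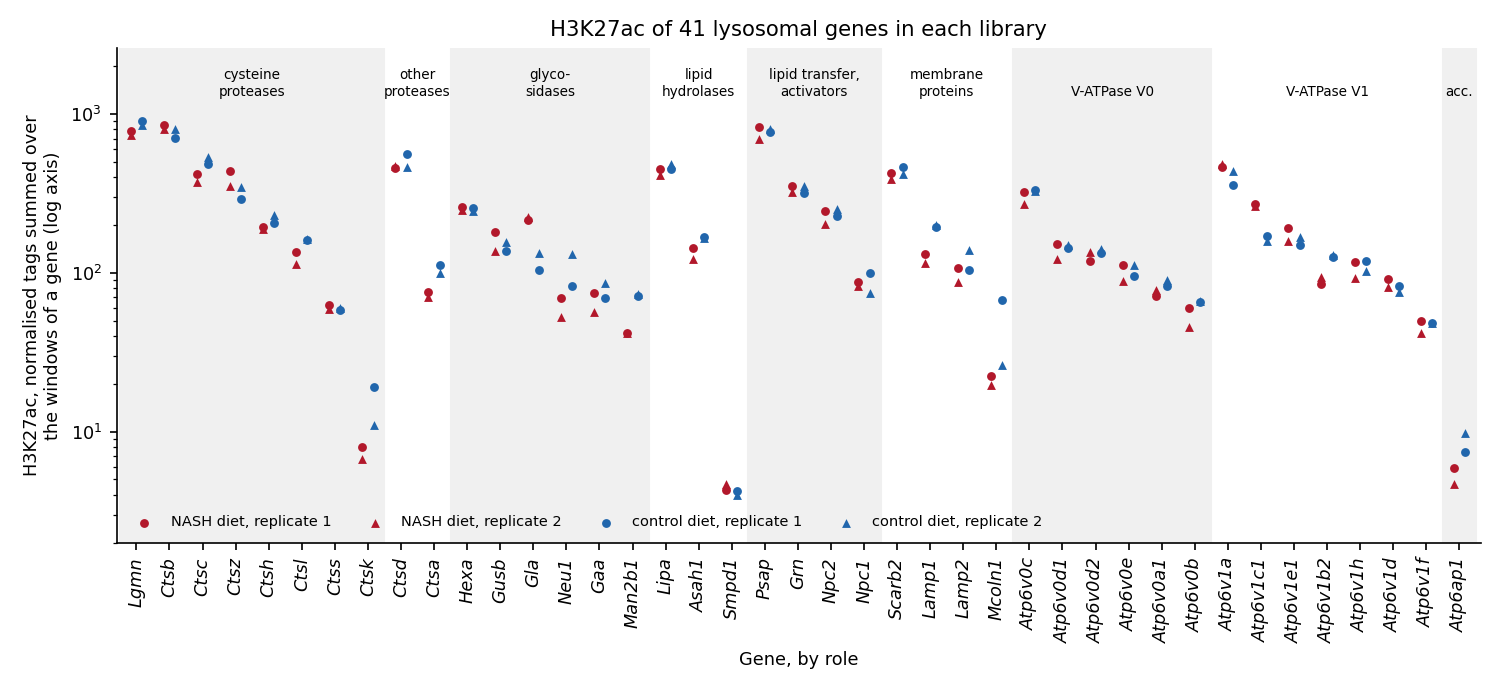
H3K27ac of the 41 genes in each library, as normalised tags summed over the windows of a gene (log axis), by role and within a role by control level. Red marks are NASH libraries and blue marks control libraries, with circles for replicate 1 and triangles for replicate 2. Most pairs of red and blue marks lie close together. Gla and Atp6v1c1 are among the genes with both red marks above the blue, and Lamp1 and Man2b1 among those with both below.

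Lysosomal genes were called changed with the diet about as often as all genes. The test was limma-trend on log2(normalised tags + 1) over all 11593 genes with enough tags, with Benjamini-Hochberg adjustment and a threshold of 0.05, and 40 of the 41 genes entered it. The median of all genes tested was -0.29 on the log2 scale, so log2 changes are given relative to that median, while calls and p-values test the change before this shift. With the authors' scaling 2 genes rose (Gla and Atp6v1c1), beside 2.89% of all genes tested, and 3 fell (Lamp1, Neu1 and Man2b1), beside 11.0% of all genes. Under TMM scaling, which moves the median gene to near 0, 4 rose (Gla, Atp6v1c1, Ctsz and Atp6v1a), beside 7.25%, and 0 fell, beside 6.19%. In either direction 5 of 40 members (12.5%) were called in the authors' scaling, beside 13.9% of all genes, and 4 of 40 with TMM, beside 13.4%. The other 33 tested genes were called in neither scaling. The median change of the 40 genes was 0.17 above the median of all genes, with 27 of 40 above it, and single genes spanned -0.68 for Mcoln1 to 1.18 for Gla. The quartiles of all genes tested were -0.33 and 0.31.

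**Figure D3:**
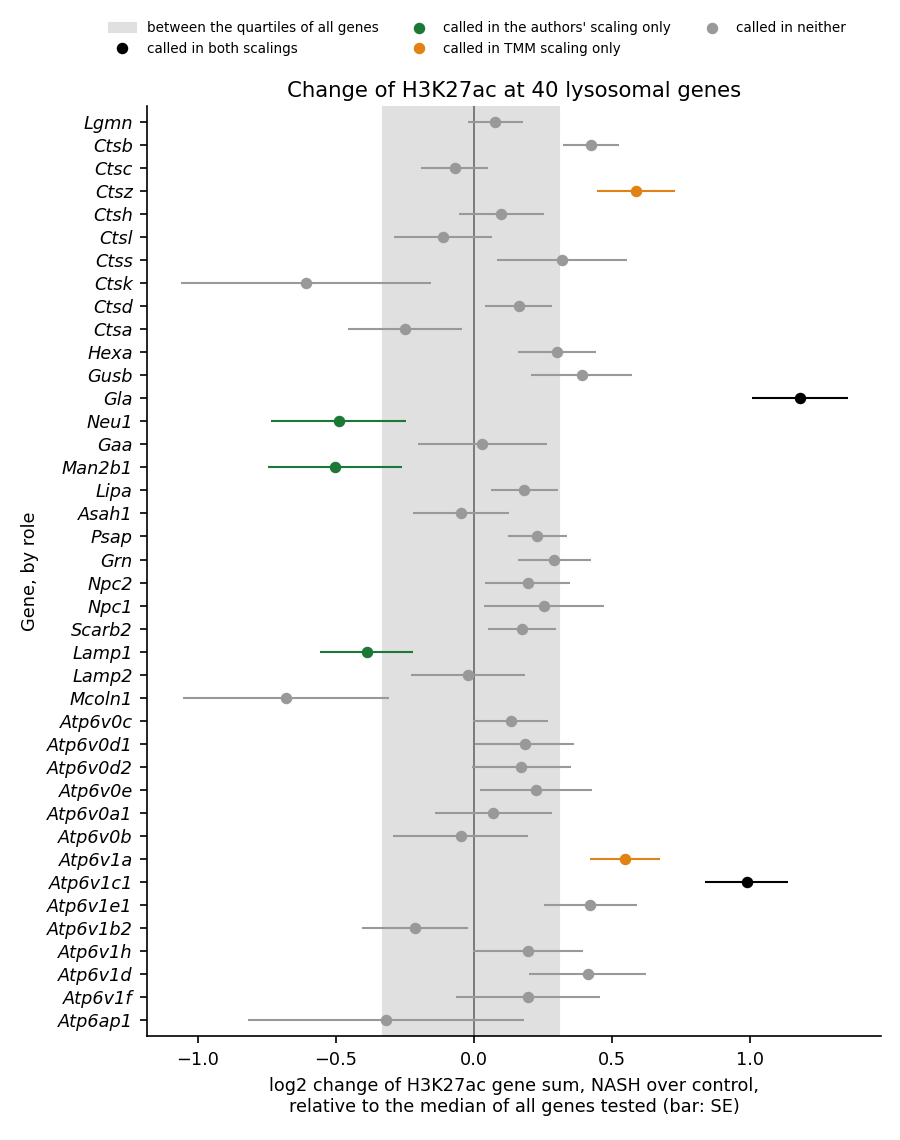
log2 change of the H3K27ac gene sum, NASH over control, relative to the median of all 11593 genes tested, for the 40 lysosomal genes tested. Points are estimates and bars standard errors, and the grey band runs between the quartiles of all genes, -0.33 and 0.31. Gla (1.18) and Atp6v1c1 (0.99) are called in both scalings, and green and orange points in 1 scaling only.

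Among the glycosidases, which remove sugars from glycoproteins and glycolipids, 1 of 6 rose and 2 fell in the authors' scaling. Gla encodes alpha-galactosidase A, which removes terminal galactose from glycolipids and is the enzyme lacking in Fabry disease. Its sum was 216 and 225 normalised tags in the NASH libraries and 105 and 134 in the control libraries. Both NASH libraries stood far above both control libraries. The log2 change was 1.18 (SE 0.17, adjusted p = 0.00159), and 7.68e-06 with TMM scaling. Leaving out NASH replicate 2 gave an adjusted p of 0.0639, and the other 3 libraries gave 2.45e-05 to 0.0294.

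Neu1, the sialidase, had 69.9 and 52.5 normalised tags in the NASH libraries and 82.4 and 132 in the control libraries. The diets did not overlap, but the control libraries differed from each other by more than the gap between diets. Its log2 change was -0.49 (SE 0.24, adjusted p = 0.0390 by limma). With TMM scaling the adjusted p was 0.151. Without NASH replicate 1, NASH replicate 2 or control replicate 2, it was 0.0817, 0.40 and 0.261. The log2 change itself was -0.92 without control replicate 1 and -0.043 without control replicate 2. Man2b1, the alpha-mannosidase, had 41.6 and 41.6 under NASH and 71.8 and 73.4 under control. The replicates almost coincided. Its log2 change was -0.50 (SE 0.24, adjusted p = 0.0349 by limma), 0.140 with TMM, and 0.0571 to 0.229 when any 1 library was left out. Hexa, the alpha subunit of beta-hexosaminidase, was even, with 258 and 248 under NASH and 256 and 245 under control. Gusb, the beta-glucuronidase, and Gaa, which degrades glycogen, were not called, with log2 changes of 0.39 and 0.03.

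Among the V-ATPase genes, 11 of 14 lay above the median change, against 16 of the 26 other genes tested. The 7 V1 subunits chosen had a median log2 change of 0.41 and the 6 V0 subunits of 0.15. Tested pump genes that were not among those chosen had -0.04 (Atp6v1g1), -0.78 (Atp6v1g2), -0.15 (Tcirg1), -0.24 (Atp6v0a2) and 0.31 (Atp6ap2). The medians thus depend on which subunits were chosen. Atp6v1c1 encodes the C subunit, which links the V1 sector to the membrane sector. It had 273 and 264 normalised tags in the NASH libraries and 170 and 159 in the control libraries. The diets were well apart, with close replicates. Its log2 change was 0.99 (SE 0.15, adjusted p = 0.00360 by limma) and the adjusted p with TMM 2.12e-05. The call was lost without NASH replicate 1 (0.0504) or NASH replicate 2 (0.0609).

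Atp6v1a, the catalytic subunit that splits ATP, had 467 and 482 in the NASH libraries and 359 and 435 in the control libraries. Both NASH values were the higher, with the control libraries far apart. The log2 change of 0.55 (SE 0.13) was called with TMM only (adjusted p = 0.0179, against 0.174 in the authors' scaling), and was 0.31 without control replicate 1. The remaining pump genes among those chosen were not called in either scaling. Atp6v1e1 and Atp6v1d, both V1 subunits, had changes of 0.42 and 0.41. Atp6v1b2, which pairs with the catalytic subunit, had 84.8 and 94.6 under NASH and 126 and 129 under control (log2 change -0.22, adjusted p = 0.0872 by limma). Atp6v0d2, the V0 subunit best known from osteoclasts and macrophages, had 118 and 136 under NASH and 134 and 141 under control. These ranges overlapped.

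Among the proteases none was called in the authors' scaling. Ctsz, a cysteine carboxypeptidase, had 438 and 352 normalised tags under NASH and 290 and 348 under control. The lower NASH library lay just above the higher control library. Its log2 change of 0.59 (SE 0.14) was called with TMM only (adjusted p = 0.0104, against 0.162 in the authors' scaling), and was 0.36 without control replicate 1. Ctsc, which activates serine proteases of granules, had 420 and 375 under NASH and 484 and 534 under control, with no overlap and an adjusted p of 0.0561. Ctsk had 8.0 and 6.76 under NASH and 19.0 and 11.1 under control, values near the floor. Ctsa, Ctsh, Ctsl and Ctss had log2 changes between -0.25 and 0.32.

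The 4 membrane proteins had a median log2 change of -0.21. Lamp1 had 132 and 115 normalised tags in the NASH libraries and 195 and 199 in the control libraries, well apart. Its log2 change was -0.39 (SE 0.17, adjusted p = 0.0107 by limma), with 0.132 under TMM and 0.157 without NASH replicate 2. Lamp2, its paralog needed for fusion with autophagosomes, had 107 and 87.4 under NASH and 103 and 139 under control. These values overlapped. Mcoln1, the calcium channel TRPML1, had 22.4 and 19.8 under NASH and 67.6 and 26.1 under control. Its control libraries differed widely, and its log2 change of -0.68 (SE 0.37) was not called (adjusted p = 0.0886 by limma). The value was -0.11 without control replicate 1, and -1.24 without control replicate 2 (adjusted p = 0.000149). Asah1, the acid ceramidase, Npc1 and Npc2, which carry cholesterol out of the lysosome, and Grn, the granulin precursor, were not called, nor were Lipa and Psap. Their log2 changes ran from -0.05 to 0.29.

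Split by position, Gla rose and Lamp1 fell in both promoter and distal windows in the authors' scaling. Promoter sums used windows within 1000 bp of a start site, and 36 of the genes had enough tags there. Gla rose (201 and 213 under NASH, 105 and 130 under control, log2 change 1.11, adjusted p = 0.0111 by limma), beside 0.937% of all promoters tested that rose. Lamp1 fell (2.13 and 9.36 under NASH, 28.5 and 15.0 under control, log2 change -1.64, adjusted p = 0.0293 by limma), beside 3.40% that fell. The Lamp1 promoter value is that of 1 window, at 47 bp, and the window test below uses the same tags. The Gla promoter call was lost without NASH replicate 1 (0.0603), NASH replicate 2 (0.232) or control replicate 1 (0.0648), and that of Lamp1 without NASH replicate 1 (0.330) or control replicate 1 (0.198). The Lamp1 promoter change was -0.69 without NASH replicate 1 and -2.62 without NASH replicate 2. With TMM, 1 promoter rose (Gla), beside 2.19%, and 0 fell, beside 1.84%.

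Distal sums of 34 genes gave more calls in both directions. In the authors' scaling Gla, Atp6v1c1 and Ctsz rose, 3 genes beside 6.47% of all distal sums, and Ctsa, Ctsc, Ctsl, Lamp1, Lamp2 and Neu1 fell, 6 genes beside 19.7%. With TMM 6 rose (also Ctsb, Atp6v0a1 and Atp6v1a), beside 12.6%, and 1 fell (Ctsl), beside 10.9%. The distal windows of Ctsz held 367 and 293 normalised tags under NASH and 217 and 262 under control, and its promoter windows 70.9 and 58.2 under NASH and 73.9 and 85.8 under control. The distal values were higher under NASH and the promoter values lower. The distal log2 change was 0.72 (adjusted p = 0.0161 by limma), lost without NASH replicate 1 (0.182) or control replicate 1 (0.174). Ctsl, the broad cysteine protease cathepsin L, had most of its signal at the promoter (130 and 101 under NASH, 142 and 141 under control). Its 5 distal windows held only 4.79 and 11.4 under NASH and 20.1 and 22.6 under control. The diets were apart in all libraries, with a log2 change of -1.13 (adjusted p = 0.0169 by limma), lost without NASH replicate 1 (0.210) or control replicate 2 (0.0694). The change was -0.54 without NASH replicate 1 and -1.74 without NASH replicate 2. The distal call of Atp6v1c1 held with any 1 library left out. The distal value of Gla is that of 1 window, the one 1430 bp into the gene, and the window test below uses the same tags. As a distal sum its adjusted p stayed at or under 0.0352 with any 1 library left out (log2 change 2.98, and 1.78 without control replicate 1), while as a window the call was lost without NASH replicate 1 (0.11), NASH replicate 2 (0.11) or control replicate 1 (0.0705). That of Lamp1 was lost without NASH replicate 2 (0.0926), and those of Ctsc and Neu1 without NASH replicate 2 (0.126 and 0.267) or control replicate 2 (0.170 and 0.225). Ctsa lost its call without NASH replicate 1, NASH replicate 2 or control replicate 1 (0.0507 to 0.139), and Lamp2 without either NASH library or control replicate 2 (0.107 to 0.231). Without control replicate 2, the distal changes of Lamp1, Lamp2 and Neu1 were -0.17, -0.19 and -0.21, against -0.32, -0.40 and -0.55 with all libraries. That of Neu1 was -0.30 without NASH replicate 2 and -0.86 without control replicate 1. Of the distal sums called with TMM only, Atp6v0a1 was at 1.05 and, without control replicate 1, at 0.58, and Ctsb was at 0.34, with 0.20 and 0.51 without control replicates 1 and 2.

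At single windows, 302 of the 391 had enough tags. A call also required a log2 change of at least 1 in either direction, taken before the shift to the median. That median was -0.26 over all windows tested, so a lowered window could be called at less than 1 on the shifted scale, and a raised one needed more. In the authors' scaling 5 rose, beside 2.00% of all windows tested, and 7 fell, beside 4.59%. With TMM 7 rose, beside 3.32%, and 2 fell, beside 2.51%. Without NASH replicate 1 the counts were 0 raised and 1 lowered (at Ctsb), without NASH replicate 2 they were 0 and 2 (at Ctsb and the Lamp1 start), and without control replicate 2 they were 9 and 13. Without control replicate 1, the calls named below were lost at Gla 1430 bp, Lamp1 and Ctsc (adjusted p 0.0705 to 0.137), and without control replicate 2 at Lamp1 -1820 bp and Ctsc -223326 bp (0.0913 and 0.104).

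The raised windows lay at Gla, Atp6v1c1 and Atp6v1a. At Gla, the window 657 bp into the gene (chrX:134600240-134600456) had 51.2 and 63.4 normalised tags under NASH and 21.1 and 25.2 under control (log2 change 1.53, adjusted p = 0.0101 by limma). The window 1430 bp into the gene, in intron 1 (chrX:134599475-134599675), had 14.9 and 12.5 under NASH and 0 and 3.98 under control (log2 change 2.97, adjusted p = 0.0184 by limma, with 1.75 without control replicate 1). The strongest Gla window, at 326 bp, had 137 and 137 under NASH and 73.9 and 93.7 under control and missed the threshold (adjusted p = 0.0519). All 3 lay above both control libraries in both NASH libraries. They lie on the Gla side of the start shared with Hnrnph2, whose first base is 831 bp from the 657 bp window.

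Atp6v1c1 had 2 adjacent raised windows between genes, 17582 and 17349 bp before its start (chr15:38644194-38644451 and chr15:38644455-38644655). The first had 64.0 and 54.6 under NASH and 25.4 and 24.3 under control (log2 change 1.48, adjusted p = 0.0105 by limma). The second had 42.1 and 42.6 under NASH and 15.8 and 19.0 under control (adjusted p = 0.0173). Both diets were tightly grouped. Atp6v1c1 was the nearest gene, with the next, Azin1, 125028 bp from the first window. Atp6v1a had 1 raised window in intron 1, 14756 bp into the gene (chr16:44124403-44124603), with 12.8 and 14.6 under NASH and 1.06 and 2.65 under control (2.68, adjusted p = 0.0116 by limma). With TMM, windows at 15740 and 2444 bp were called too.

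The lowered windows were at Ctsb, Lamp1, Ctsc and Lgmn. The Ctsb window 2823 bp before the start (chr14:63119526-63119753), annotated in a LINE repeat, had 4.27 and 6.24 under NASH and 30.6 and 22.1 under control. The diets were far apart there, although the sum over all Ctsb windows was not called. Its log2 change was -1.87 (adjusted p = 0.00489 by limma, 0.00989 with TMM), and it stayed below the threshold with any 1 library left out (0.00138 to 0.0423). Lamp1 had 3 lowered windows at -3115, -1820 and 47 bp. The last (chr8:13159104-13159313), which overlaps the E-box stretch printed above, had 2.13 and 9.36 under NASH and 28.5 and 15.0 under control (adjusted p = 0.0335 by limma, 0.0693 with TMM). Its log2 change was -1.67, with -0.76 without NASH replicate 1 and -2.63 without NASH replicate 2. Ctsc had lowered windows at -13168 and -223326 bp, the second inside Grm5, so its assignment to Ctsc is by distance only. The lowered Lgmn window, at 58073 bp (6.40 and 4.16 under NASH, 19.0 and 20.8 under control), lies inside Rin3, 12342 bp outside Lgmn.

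**Figure D4:**
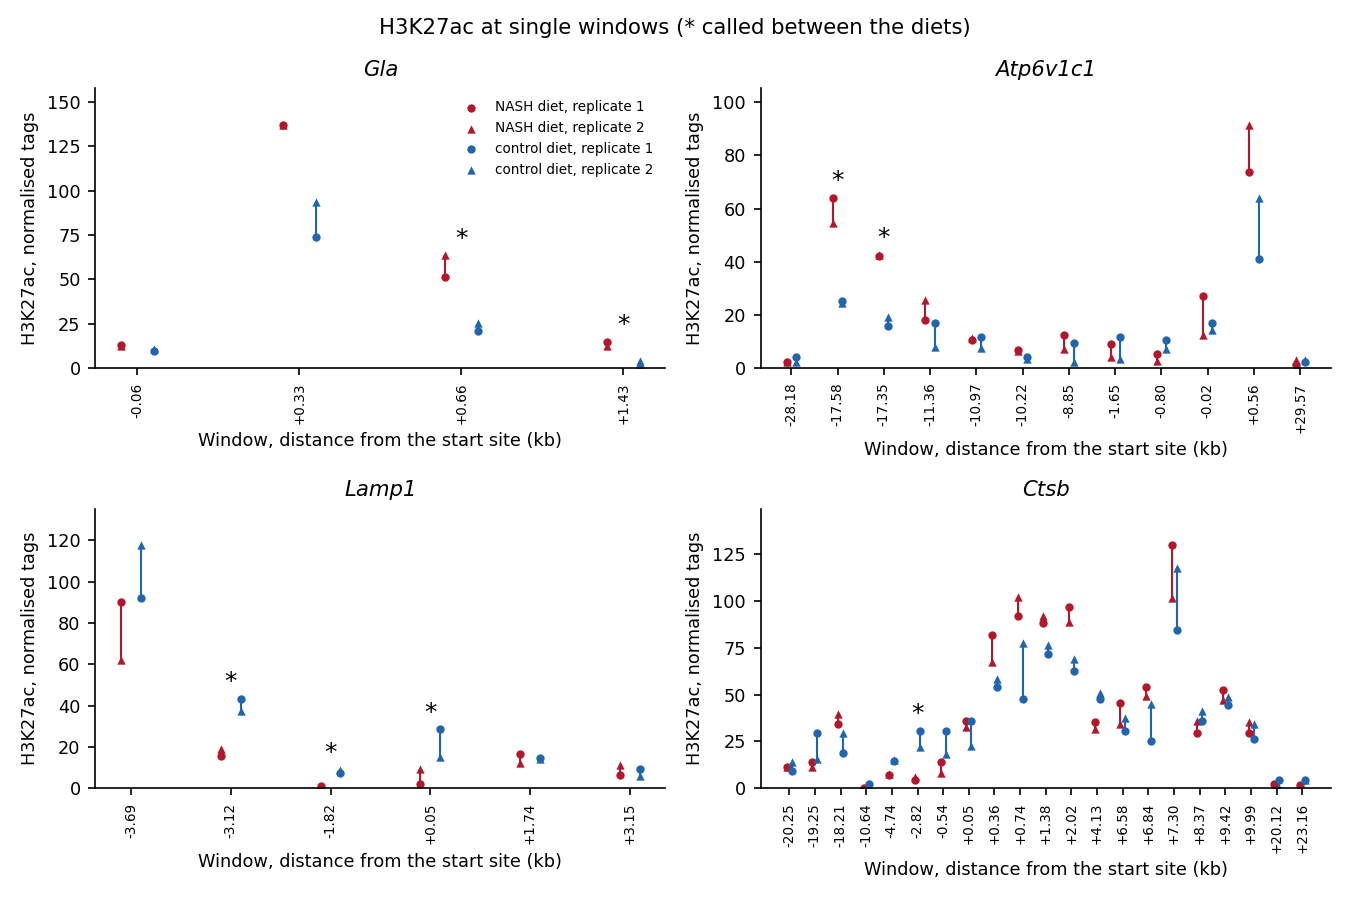
H3K27ac of every window of Gla, Atp6v1c1, Lamp1 and Ctsb in normalised tags, ordered by distance from the start site in kb (not to scale). Red marks are NASH and blue control libraries, circles replicate 1, triangles replicate 2, lines join the pair, and stars mark called windows. Both NASH marks lie above both control marks in all 4 Gla windows, of which 2 are starred, and 3 of the 6 Lamp1 windows are starred as lower.

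Windows of lysosomal genes held LXR, ATF3 and P300 sites more often than all windows did, on the lists of both diets. LXR is a receptor for oxidised sterols that drives cholesterol export genes, ATF3 is induced by stress and lipid loading, and P300 acetylates histones at enhancers. The authors deposited 1 list of reproducible sites per factor and diet, joined over both libraries, so sites have no replicate and no test. The headers of the NASH lists of LXR and P300 carry 30 after the diet, with no unit, where that of the windows carries 20 weeks, so time on the diet may differ between them. An overlap of at least 1 bp counted. For LXR 269 of 391 lysosomal windows (68.8%) held a site on the NASH list and 236 (60.4%) on the control list, against 57.7% and 52.7% of all windows. For ATF3 the NASH count was 217 (55.5%) and the control count 125 (32.0%), against 42.0% and 21.4% of all windows. For P300 these were 304 (77.7%) and 184 (47.1%), against 58.9% and 32.3%. The NASH lists were longer for each factor, with 51709 against 44463 sites for LXR, 38828 against 16109 for ATF3 and 52628 against 25219 for P300. By gene, all 41 had an LXR site on the NASH list and all 41 on the control list, beside 78.7% and 77.8% of all genes. For ATF3 it was 38 under NASH and 30 under control, beside 63.6% and 43.7%, and for P300 41 and 38, beside 79.4% and 57.8%. Lysosomal genes have more windows per gene, as given above, and a count by gene grows with the number of windows.

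**Figure D5:**
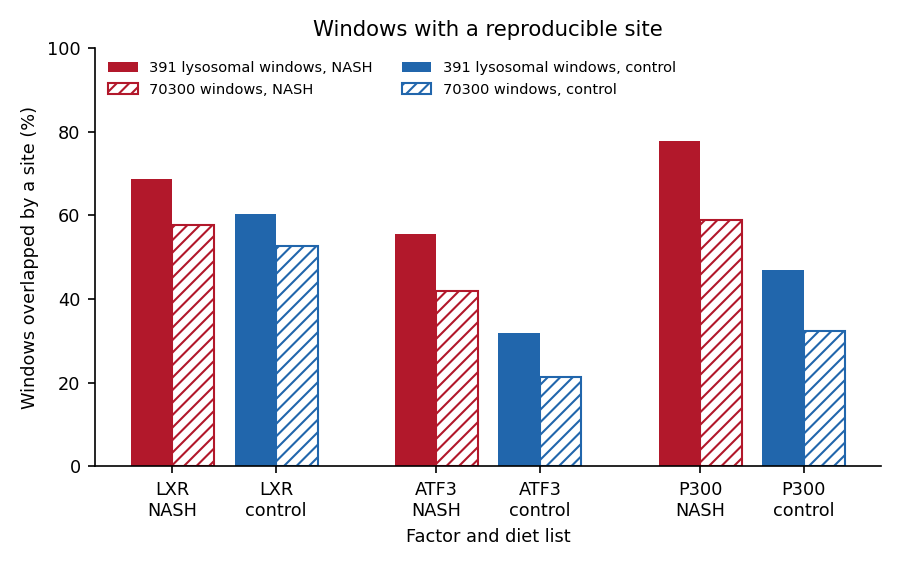
Share of windows overlapped by a reproducible site (%), for LXR, ATF3 and P300 and the NASH (red) and control (blue) list. Filled bars are the 391 lysosomal windows and hatched bars all 70300 windows. The filled bar is the higher in each of the 6 pairs, with P300 under NASH at 77.7% against 58.9%.

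More windows were on the NASH list alone than on the control list alone. For P300, 131 lysosomal windows (33.5%) were on the NASH list only and 11 on the control list only, beside 29.1% and 2.49% of all windows. For ATF3 it was 105 (26.9%) and 13, beside 24.2% and 3.58%, and for LXR 49 (12.5%) and 16, beside 12.5% and 7.53%. The NASH-only shares of the lysosomal windows were thus near those of all windows. Shares on both lists differed more: 44.2% against 29.8% for P300, 28.6% against 17.9% for ATF3 and 56.3% against 45.2% for LXR. On neither list were 19.4% against 38.6% for P300, 41.2% against 54.4% for ATF3 and 27.1% against 34.8% for LXR. A window on the control list cannot be on the NASH list only. The NASH-only shares thus do not measure how often a window without a control site had a NASH site. For each factor that was more often so in lysosomal windows than in all windows. The lysosomal NASH-only shares were no lower, and the lysosomal shares on neither list were lower. All 3 factors together were on 196 lysosomal windows (50.1%) under NASH and 96 (24.6%) under control, beside 32.8% and 14.6% of all windows. Lysosomal windows with 0, 1, 2 and 3 factors had median H3K27ac of 11.6, 14.3, 13.7 and 12.3 normalised tags under NASH and 10.6, 16.1, 17.3 and 14.0 under control. Over all windows the medians were 1.60, 3.72, 5.53 and 6.07 under NASH and 2.38, 5.95, 9.65 and 9.26 under control.

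The highest authors' enrichment scores were at protease genes. Scores rank sites within a list only. On the NASH LXR list the best lysosomal sites lay at -5816 and -13910 bp from the Lgmn start (scores 354 and 348, ranks 91 and 105) and at -5408 bp from that of Ctsd (329, rank 150). On the control LXR list the Lgmn site at -5816 bp (345, rank 192) and the Ctsd sites at -5408 and -10304 bp (335 and 325) led. On the NASH P300 list, the Lgmn sites at -13910 and -5816 bp (309 and 253, ranks 39 and 128) and a Ctsb site 6583 bp into the gene (261, rank 103) led. On the control P300 list the 3 best were all at Ctsb, at 50, 6583 and 1378 bp (98, 85 and 84, the first at rank 231).

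Among windows on the NASH P300 list only, the highest score was at the Ctsc promoter, 130 bp before the start (171, rank 1045), followed by Ctsb at 736 bp (164), Atp6v0a1 at -6190 bp (153) and Psap at -15072 bp (138). The next were 2 Psap promoter windows under 1 site (129), Scarb2, the receptor that carries glucocerebrosidase to lysosomes, at -19451 bp (116), Ctsb at 9987 bp (113), Gusb at 7852 bp (109) and Atp6v0d2 at 3484 bp (102). For the Ctsb window at 736 bp, the NASH site ended at chr14:63123575. A control P300 site began just beyond it, at chr14:63123584, outside this window. Of windows on the control P300 list only, the best was Ctsb at 362 bp (98, rank 231), touched over 11 bp by the site at the start, and the next was Gusb at 484 bp (42, rank 5381). For LXR, the best NASH-only site was at the same Atp6v0a1 window (85, rank 9007), and the best control-only site at -80646 bp from Atp6v1b2 (173, rank 2870). The next control-only LXR site (70, rank 17136) overlapped the raised Atp6v1c1 windows, by 56 bp at -17582 bp and by 201 bp at -17349 bp. For ATF3, 71 of the 105 NASH-only and 6 of the 13 control-only windows shared the highest score of 1000, so none was ranked.

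At most lysosomal genes, the 2 whose H3K27ac rose in both scalings included, more windows were on the NASH than on the control P300 list. The NASH P300 list is also the longer, with 52628 against 25219 sites. Gla had P300 in 3 of 4 windows on the NASH list and in 0 on the control list, and ATF3 in 3 and 1. Atp6v1c1 had P300 in 9 of 12 windows under NASH and 1 under control, LXR in 7 and 4, and ATF3 in 6 and 3. Of the genes that rose with TMM only, Atp6v1a had P300 in 9 of 12 windows under NASH and 3 under control, and Ctsz in 4 of 8 on either list. Of the genes that fell in the authors' scaling, Lamp1 had P300 in 3 of 6 windows on either list and ATF3 in 2 on either. Neu1 had P300 in 3 of 5 windows on either list, and ATF3 in 2 under NASH and 1 under control. Man2b1 had P300 in 3 of 3 windows under NASH and 2 under control, and ATF3 in 1 on either list. Most genes that were not called also had more windows on the NASH P300 list. Atp6v0e had P300 in 7 of 7 windows under NASH and 2 under control, and Psap in 24 of 26 and 10. P300 counts were equal at Ctsz, Lamp1, Gaa, Neu1, Gusb, Mcoln1 and Atp6v1h, and no lysosomal gene had fewer under NASH. Log2 changes of H3K27ac were also taken over all lysosomal windows, with enough tags for the test or not. They are relative to the median of the windows tested, which was -0.26, and -0.23 without the filter on low values. The median change was 0.14 where P300 was on the NASH list only (131 windows), 0.14 where it was on neither list (76 windows) and 0.04 where it was on both (173 windows). Over all windows these medians were 0.12, 0.04 and -0.02.

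Other genes of the lysosome were read from a list of 72 names, of which 64 were in the table and 53 could be tested. In the authors' scaling 1 rose, beside 2.89% of all genes, and 6 fell, beside 11.0%, with TMM 7 rose, beside 7.25%, and 3 fell, beside 6.19%, and their median was 0.14 above that of all genes. The gene that rose was Cd63, a tetraspanin of late endosomes, with 50.1 and 38.0 normalised tags under NASH and 4.22 and 1.32 under control (log2 change 3.97, adjusted p = 2.40e-05 by limma). Its control values rest on 4 and 3 tags. Among those that fell were Hgsnat, which acetylates heparan sulfate (89.1 and 74.9 under NASH, 205 and 180 under control), Atp6v1g2, a V1 subunit (43.7 and 34.3, against 85.6 and 78.7), and Fuca1, the fucosidase (35.2 and 42.1, against 81.3 and 73.4), each lower with both scalings. Acp2, the acid phosphatase, fell in the authors' scaling only. Of 19 tested regulators of lysosome genes, 0 rose and 1 fell in the authors' scaling, Mitf, a relative of TFEB (183 and 167 under NASH, 274 and 250 under control, adjusted p = 0.0151 by limma), and with TMM none was called. Tfeb itself had 268 and 264 under NASH and 320 and 285 under control (adjusted p = 0.396).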

How the data were processed

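Per the file headers, the deposited H3K27ac signal is HOMER's tag number in each window on mm10, brought to 10000000 tags in every library. Windows span 124 to 550 bp (median 204) and come from ATAC-seq peaks found reproducibly and merged, and HOMER gave each window its nearest gene. The submitters' processing notes name Bowtie2, HOMER and DESeq2, with versions not given in the sources used here. For each LXR, ATF3 and P300 site the authors deposited a reproducibility (IDR) score. LXR and P300 sites also have an enrichment score, and their IDR limit was 0.05, per the file headers. In the ATF3 lists the score is unnamed and was taken from its position. Input and peritoneal macrophage samples were not analysed here.

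Values times the header total gave whole tags within 0.02 for 100% of values. Tests used limma 3.58.1 on log2(value + 1), with edgeR 4.0.16 filterByExpr on recovered tags and Benjamini-Hochberg adjustment over all features, tested on simulated data. Alternatives were TMM, pseudocounts of 0.5 and 5, no filter, each library left out, a replicate block, edgeR and DESeq2 1.42.0 (R 4.3.3), windows within 100000 bp, and other site thresholds and overlaps (bedtools 2.31.1). Replicate libraries correlated at 0.965 (NASH) and 0.954 (control) over genes, with a chi-square per degree of freedom of 2.29 and 3.15, above sampling noise. Each library was counted once, but these values do not tell whether libraries came from separate animals.

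Named genes were those called in either scaling, with a called window or with the highest control H3K27ac. Named windows were the called ones, and named sites the best 3 per list and the best 10 on 1 list only, which for P300 were all from the NASH list, with its higher scores. The best control-only P300 windows and the marker genes called were named after their values were seen. From the other lysosome genes up to 4 per direction were named. Other members are given by role. The members and lists were chosen with earlier results of these data known.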

Additional observations from a re-analysis of the deposited data

How the results depend on the processing

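Calls rest on 2 libraries per diet, and the shallowest, control replicate 1, sets the floor. Site counts stayed within 1.5 times under all 3 site alternatives, as did every count of members called under either pseudocount. Given as raised then lowered, gene sums called 2 and 3 members, TMM 4 and 0, no filter 2 and 1, edgeR 4 and 1, DESeq2 3 and 0, and leaving out 1 library 0 to 2 and 0 to 2. For windows, with 5 and 7 called, TMM gave 7 and 2, no filter 0 and 0, edgeR 7 and 3, DESeq2 3 and 0, and leaving out 1 library 0 to 9 and 1 to 13. Promoter sums, with 1 and 1, gave 1 and 0 under TMM and without a filter, and 0 to 1 and 0 to 2 with 1 library left out. Distal sums, with 3 and 6, gave 6 and 1 under TMM, 2 and 1 without a filter, and 2 to 4 and 1 to 5 with 1 library left out. The cause of these shifts was not tested, except that fits without a filter adjust over more features. Over all genes, the authors' scaling called 335 raised and 1278 lowered, and TMM 841 and 718.

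The labels number the replicates 1 and 2 in each diet, but replicate differences of the diets correlated at 0.032, and with 2 pairs the numbers were not taken to pair the libraries. With the replicate number as a block, gene sums called 2 and 7 members, windows 6 and 12, promoter sums 1 and 3 and distal sums 3 and 6.

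No called gene sum changed direction in any alternative run. The gene sum of Gaa was -0.012 with edgeR, against 0.03. With 1 library left out, log2 changes of uncalled genes spanned 0, from -0.24 to 0.11 for Ctsc (distal sum, called lowered, -0.26 to 0.022), -0.084 to 0.29 for Ctsh, -0.22 to 0.0076 for Ctsl, -0.33 to 0.30 for Lamp2, -0.22 to 0.29 for Gaa, -0.13 to 0.041 for Asah1, -0.091 to 0.24 for Atp6v0a1, -0.16 to 0.075 for Atp6v0b and -0.016 to 0.34 for Atp6v0d2.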
